A study of Mus musculus with 6 samples.

Results

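The genes described here are 10 genes of astrocyte transport and metabolism: Slc1a2, Slc1a3, Glul, Aqp4, Slc4a4, Atp1b2, Aldoc, Aldh1l1, Sox9 and Agt. They were taken by name, and assembled transcripts were matched to them by exon overlap on the same strand with GENCODE vM21. All 10 were assembled in all 6 libraries, among 17245 genes with an assembled exonic base of their own. The tissue was ventral lumbar cord from 5-week-old mice on a C57BL/6 background, with 3 Gde2KO libraries and 3 wild-type (WT) libraries made from poly-A RNA. Gde2KO mice carry a knockout of Gdpd5, whose product GDE2 is a membrane enzyme that cuts glycosylphosphatidylinositol anchors, and WT mice carry none. The labels give neither the allele's construction nor the sex, and they do not say whether a library came from 1 animal, so each p-value measures the spread between these libraries. The series addresses GDE2 in neurons, Wnt signalling and oligodendrocyte maturation, and the astrocyte genes are a readout outside that question.

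Astrocytes take up the glutamate that neurons release, turn it into glutamine and hand it back. They also clear potassium, move water and bicarbonate across their endfeet, hold an astrocyte-biased set of glycolytic and folate enzymes, and in the cord express angiotensinogen. The 10 genes cover these tasks: uptake (Slc1a2, Slc1a3), glutamine synthesis (Glul), water and ion transport (Aqp4, Slc4a4, Atp1b2), metabolism (Aldoc, Aldh1l1), a glial transcription factor (Sox9) and a secreted precursor (Agt).

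A level is given in scaled FPKM, the authors' fragment density per kilobase of transcript corrected for library size, averaged over the counted exonic bases of a gene and scaled between libraries. Libraries held 31899 to 33791 assembled transcripts, and their relative depth, with 1 as the average, ran from 0.910 to 1.14. Gdpd5 had 1.24, 1.20 and 0.946 FPKM in Gde2KO replicates 1 to 3, against 5.38, 6.54 and 5.95 FPKM in WT replicates 1 to 3. The groups did not overlap, and the log2 difference was -2.31 (limma, Benjamini-Hochberg adjusted p = 0.00526). The cholinergic gene Chat, a mark of motor neurons, averaged 20.3 ± 3.06 FPKM in Gde2KO and 20.5 ± 2.75 FPKM in WT cords (SD, n = 3 each). The glycine transporter gene Slc6a5 averaged 65.3 ± 5.40 FPKM in Gde2KO and 61.9 ± 1.05 FPKM in WT cords. Chat and Slc6a5 were thus present in both genotypes, and the extent of the dissection was not tested.

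None of the 10 astrocyte genes passed the test between genotypes. The calls were 0 of 10 at an adjusted p under 0.05, where 15 of all 12894 genes tested (0.116%) were called, 5 higher and 10 lower in Gde2KO. At an unadjusted p under 0.05 there were 3 of 10, Glul, Aldoc and Sox9, all lower in Gde2KO, where the share over all genes was 3.91%. One of the 10, Aldoc, had groups that did not overlap, where the share over all genes was 10.9%, and 5.79% with Gde2KO lower. Log2 differences were above 0 for 4 of the 10 genes and below 0 for 6, with a median of -0.01 over the 10 and 0.00 over all genes tested. In bulk tissue, a difference in the number of astrocytes and one in RNA per astrocyte cannot be told apart. FPKM also changes with the assembled length of a transcript.

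**Figure D1:**
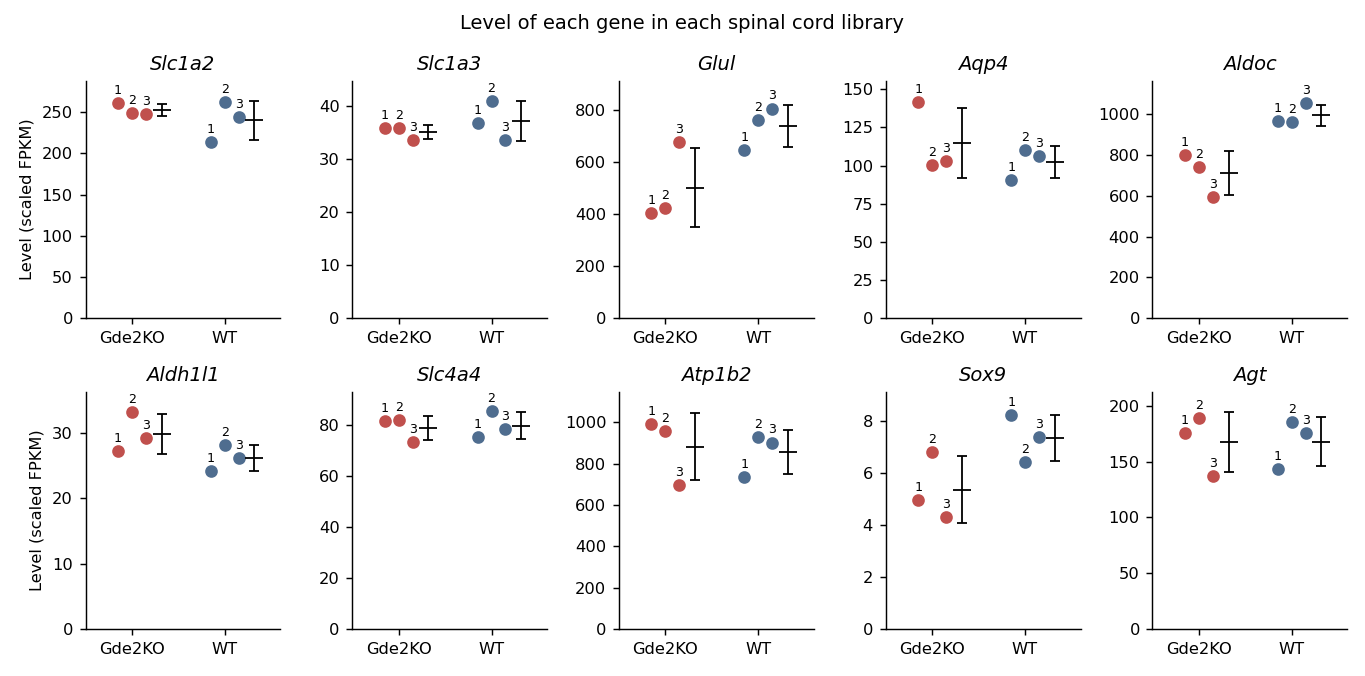
Level of each of the 10 genes in scaled FPKM (linear axis from 0), with Gde2KO libraries on the left and WT libraries on the right. Points are libraries numbered by replicate, and bars give the mean and SD of 3. Aldoc is the one panel where all Gde2KO points (594 to 800 FPKM) lie below all WT points (962 to 1055 FPKM).

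Slc1a2 encodes GLT-1, the main glutamate transporter of adult astrocytes. It lies on chromosome 2, bases 102658659 to 102790784, plus strand (GRCm38, as all coordinates here), with 12 annotated forms. Its level was 262, 249 and 248 FPKM in Gde2KO replicates 1 to 3, against 214, 262 and 244 FPKM in WT replicates 1 to 3. The Gde2KO values were close together, and all 3 lay inside the WT range. The log2 difference was 0.08 (95% interval -0.16 to 0.31, limma adjusted p = 0.884), and the difference is within the spread between replicates. The interval allows a fold of 0.898 to 1.24.

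One form of Slc1a2 dominated the assemblies. It had the 11 exons of Slc1a2-202, which codes for 572 amino acids, and it was assembled in all 6 libraries. Its share of the gene's FPKM was 100% in Gde2KO replicates 1 and 3 and 83.5% in Gde2KO replicate 2, against 67.8% in WT replicate 1 and 100% in WT replicates 2 and 3. The first base of the assembled gene ran from 102658246 to 102658621 over the libraries, and the longest transcripts held up to 12005 bases because the last exon is long. The annotated start at 102706438, used by Slc1a2-201 and Slc1a2-203, was the first base of an assembled transcript in no library. The 10-exon forms Slc1a2-201 and Slc1a2-204, whose coding sequence stops at 102777691 and so has another C-terminus, were also assembled in none.

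In 2 libraries a second Slc1a2 transcript carried an unannotated intron of 887 bases inside the last exon, at 102781585 to 102782471, starting 54 bases past the last base of the coding sequence. It had the GT and AG ends of a common intron. In Gde2KO replicate 2 the transcript with it had 12 exons from the gene's 5′ end and 41.4 FPKM, a share of 16.5%. In WT replicate 1 the transcript with it was a 5-exon piece that began at 102761015, without the 5′ part of the gene, and had 77.1 FPKM, a share of 32.2%. The transcripts have the intron in common and differ in length, 11104 bases in Gde2KO replicate 2 and 9010 bases in WT replicate 1. No other library held the intron. Since 1 library of each genotype held the intron, the groups overlapped, and the share of Slc1a2-202 differed by 5.21 percentage points (Gde2KO minus WT), less than the SD of 18.6 points in WT. The intron was not in all 6 libraries, so its share was not tested.

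Slc1a3, on the minus strand of chromosome 15 (bases 8634124 to 8710764), encodes GLAST, the second astrocyte glutamate transporter. It had 35.8, 36.0 and 33.6 FPKM in Gde2KO replicates 1 to 3, against 36.9, 41.1 and 33.6 FPKM in WT replicates 1 to 3. The groups overlapped, with a log2 difference of -0.08 (interval -0.30 to 0.14, limma adjusted p = 0.884). A single 10-exon transcript with the intron chain of Slc1a3-201, coding for 543 amino acids, was assembled in each of the 6 libraries, with no second form. In these cords the level of Slc1a2 per length exceeded that of Slc1a3 in all 6 libraries, with means over the libraries of 246 ± 17.4 and 36.2 ± 2.73 FPKM (SD, n = 6).

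Glul encodes glutamine synthetase, which joins ammonia to glutamate. It lies on chromosome 1, bases 153899944 to 153909723, plus strand. Its level was 404, 424 and 678 FPKM in Gde2KO replicates 1 to 3, against 647, 762 and 805 FPKM in WT replicates 1 to 3. Gde2KO replicates 1 and 2 lay below every WT value, and Gde2KO replicate 3 lay above WT replicate 1. In Gde2KO replicate 3 a transcript covered 81.3% of the counted bases of Glul, against 97.3% to 100% in the other libraries. Uncovered bases enter the level as 0. The means were 502 ± 153 FPKM in Gde2KO and 738 ± 81.9 FPKM in WT cords (SD, n = 3 each). The log2 difference was -0.59 (interval -1.15 to -0.04), with an unadjusted p of 0.0403 and an adjusted p of 0.882 from limma.

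The assembled last exon of Glul differed between the same libraries. It held 3904 and 4183 bases in Gde2KO replicates 1 and 2 and 1280 bases in Gde2KO replicate 3, against 1766, 1701 and 1696 bases in WT replicates 1 to 3. In Gde2KO replicates 1 and 2 the transcript ran 2044 and 2323 bases past the annotated end of the gene, into a stretch with no annotated exon on either strand. In the other 4 libraries the stretch held no Glul transcript, and separate pieces there reached 1.37 FPKM in WT replicate 2 and 0.737 FPKM in WT replicate 3. All 6 libraries held the same 7 exons and the intron chain of Glul-201, coding for 373 amino acids, and WT replicate 1 had a second transcript that stopped after the fifth exon. FPKM divides by assembled length, so a longer model with the same fragments lowers it. Multiplied back by length in kilobases, FPKM gives a fragment value (FPM) over all assembled bases. Glul had 1940, 2159 and 1860 FPM in Gde2KO replicates 1 to 3, against 1858, 2108 and 2188 FPM in WT replicates 1 to 3. In Gde2KO replicates 1 and 2 this value takes in the 2044 and 2323 bases past the annotated end. By that measure the groups overlapped fully, with a log2 difference of -0.02 (limma adjusted p = 0.970). Counting only the part of each transcript inside the annotated gene gave -0.57 (limma adjusted p = 0.877). That count takes the fragments as spread evenly over the assembled length, and where they lay was not tested.

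**Figure D2:**
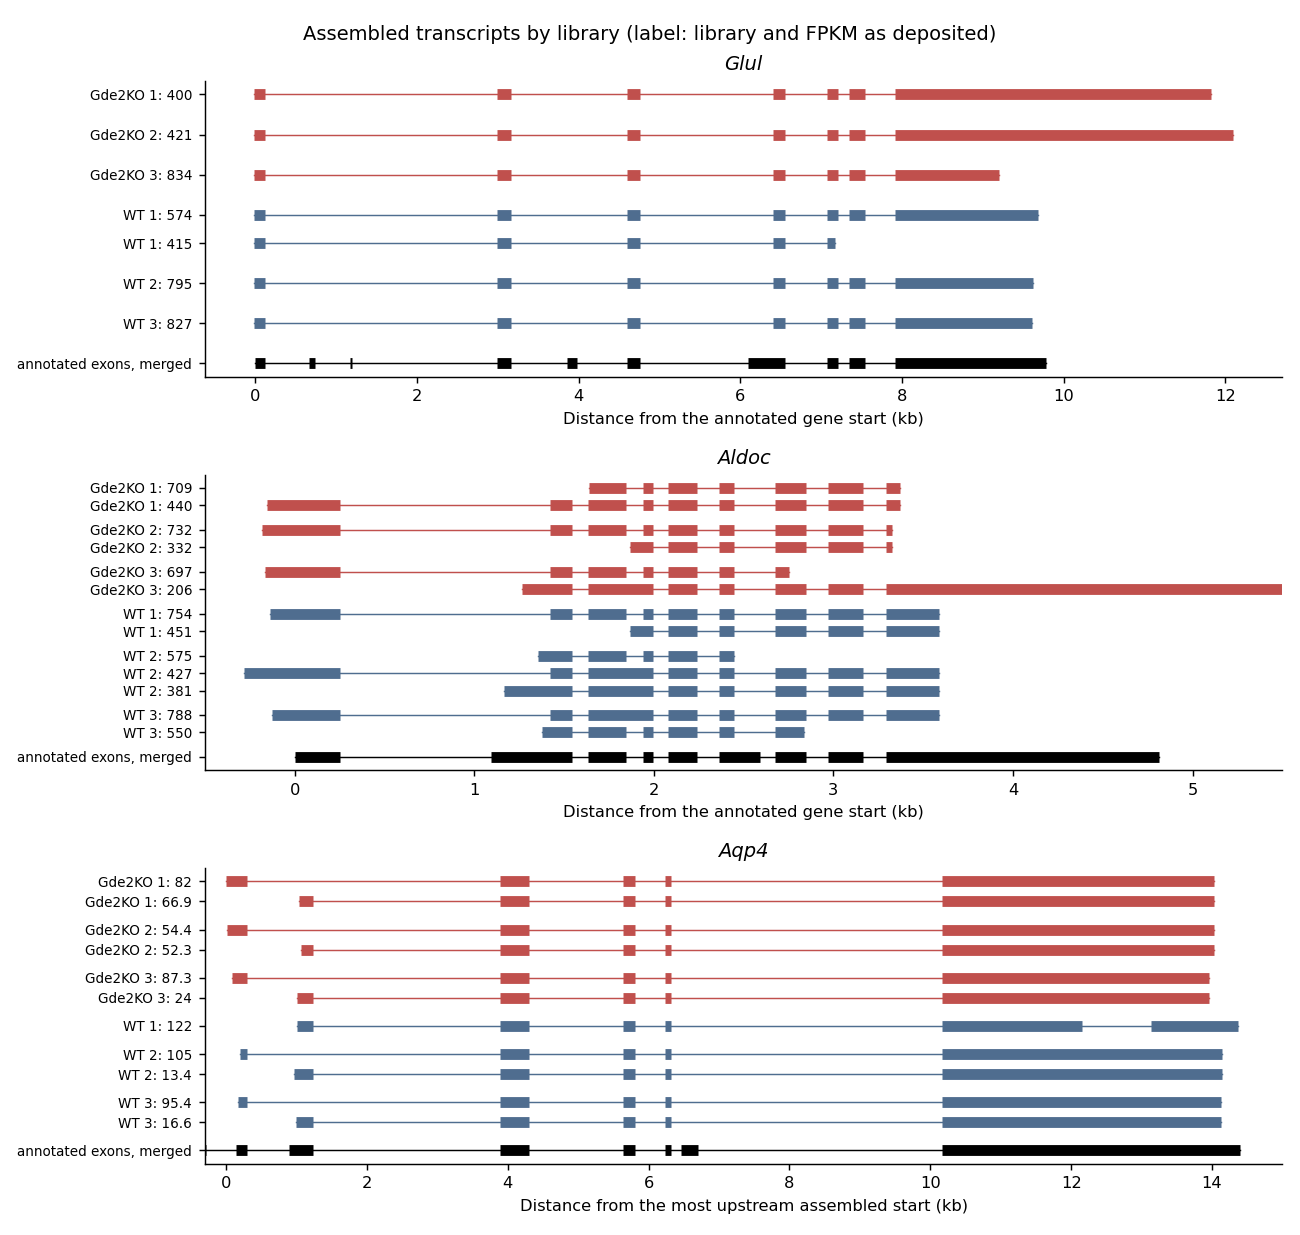
Assembled transcripts of Glul, Aldoc and Aqp4 in each library (red, Gde2KO; blue, WT; black, annotated exons merged), with thick bars for exons, distance in kb along the x axis and the deposited FPKM of each transcript in its label. The last exon of Glul runs farther in Gde2KO replicates 1 and 2, the last exon of Aldoc stops short of the WT end in the same libraries, and WT replicate 1 has no first exon of the M1 form of Aqp4. The axis of Aldoc is cut at 5.5 kb, where the long transcript of Gde2KO replicate 3 runs on.

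Aqp4 is the water channel of astrocyte endfeet. It lies on the minus strand of chromosome 18, bases 15389496 to 15410982. Its level was 141, 101 and 103 FPKM in Gde2KO replicates 1 to 3, against 90.6, 110.0 and 107 FPKM in WT replicates 1 to 3. Gde2KO replicate 1 was the highest of the 6, and the other Gde2KO libraries lay inside the WT range. Its log2 difference was 0.15 (interval -0.25 to 0.55, limma adjusted p = 0.883), and without Gde2KO replicate 1 it was -0.01.

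Aqp4 makes a longer protein, M1, and a shorter one, M23, which starts at a later methionine. M23 is known for packing into the orthogonal arrays seen in endfoot membranes, and M1 for limiting their size. Here Aqp4-201 codes for 323 amino acids and is the M1 form, and Aqp4-210 codes for 301 and is the M23 form. The forms differ in their first exon, joined to the same second exon, and the first exon of M23 lies downstream of that of M1. The M1 form had 82.0, 54.4 and 87.3 FPKM in Gde2KO replicates 1 to 3. In WT libraries it was not assembled in replicate 1 and had 105 and 95.4 FPKM in replicates 2 and 3. The M23 form had 66.9, 52.3 and 23.95 FPKM in Gde2KO replicates 1 to 3, against 122, 13.4 and 16.6 FPKM in WT replicates 1 to 3. The M1 form was thus the larger in all 3 Gde2KO libraries and in 2 of 3 WT libraries.

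As a share of the gene's FPKM, the M1 form made up 55.1%, 51.0% and 78.5% in Gde2KO replicates 1 to 3, against 0%, 88.7% and 85.2% in WT replicates 1 to 3. The means were 61.5 ± 14.8% in Gde2KO and 57.9 ± 50.2% in WT cords (SD, n = 3 each), and the difference of 3.59 percentage points is far inside the WT spread. The sign turned when either of 2 libraries was left out. Without Gde2KO replicate 3 the difference was -4.89 percentage points. Without WT replicate 1 it was -25.4 percentage points, and the Gde2KO shares lay below both remaining WT shares. In WT replicate 1 the one Aqp4 transcript had the M23 first exon, 6 exons, and an unannotated intron of 979 bases in the last exon, past the coding sequence, that lacked GT and AG ends. That transcript covered 77.3% of the counted bases of Aqp4, against 96.6% to 99.3% in the other 5 libraries. A form missing from 1 assembly can be present in the tissue, so 0% there describes the assembly. The share was not tested, because neither form was assembled in all 6 libraries with its annotated intron chain. The part of the transcripts that tells the forms apart was short, 101 to 298 bases of the M1 first exon and 181 to 267 bases of the M23 first exon, in transcripts of 4117 to 4902 bases.

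**Figure D3:**
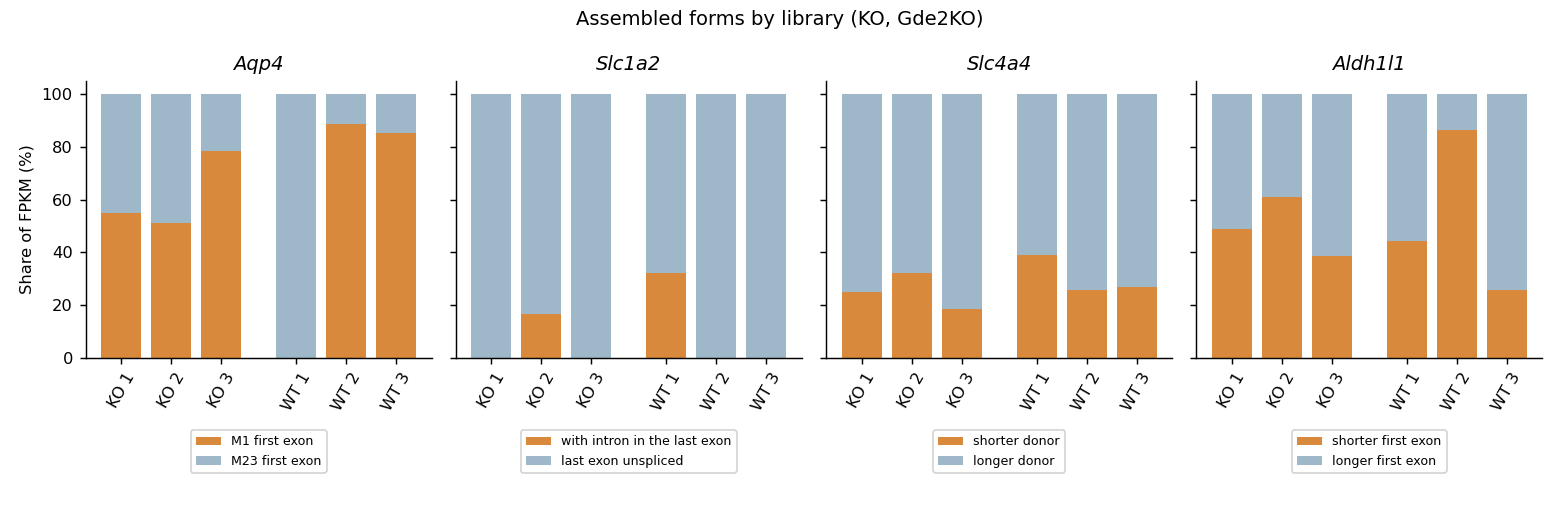
Share of FPKM (percent, y axis) taken by the alternative forms of Aqp4, Slc1a2, Slc4a4 and Aldh1l1 in each library, with the Gde2KO libraries (KO 1 to KO 3) left of the WT libraries. The M1 form of Aqp4 ranges from 51.0% to 78.5% in Gde2KO libraries, and is 0%, 88.7% and 85.2% in WT libraries. The shorter donor of Slc4a4 is present in all 6 libraries, at 18.6% to 38.8%. For Aldh1l1, shorter and longer refer to the annotated end of the first exon and not to its assembled length.

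Slc4a4 encodes the electrogenic sodium bicarbonate cotransporter NBCe1, through which astrocytes regulate pH. It lies on chromosome 5, bases 88886818 to 89239653, plus strand. Its level was 81.5, 81.8 and 73.4 FPKM in Gde2KO replicates 1 to 3, against 75.3, 85.6 and 78.5 FPKM in WT replicates 1 to 3. The groups overlapped, with a log2 difference of -0.02 (interval -0.22 to 0.19, limma adjusted p = 0.977). By level per length, Slc4a4, Slc1a2 and Slc1a3 varied least over the 6 libraries, with coefficients of variation of 5.68%, 7.07% and 7.56%. That of Glul was 27.3%, but its assembled length differed between libraries. Its FPM over all assembled bases, with those past the annotated gene end, ran from 1858 to 2188.

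All 6 libraries assembled the 25-exon form Slc4a4-208, coding for 1094 amino acids and beginning at the upstream first exon. The downstream start at 89027966, from which Slc4a4-203 codes for 1035 amino acids, was the first base of an assembled transcript in none. In every library a second splice donor was used at the end of the same exon, 27 bases before the first. Forms of NBCe1 without a short cassette in the N-terminal domain are known. The exon end and the first 15 bases of the next exon read as follows in the 2 forms (chr5:89046351-89046392 or chr5:89046351-89046365, joined to chr5:89084642-89084656, plus strand, from the GENCODE vM21 transcript Slc4a4-208), shown because this choice is the one alternative coding sequence that all 6 libraries shared. Capitals mark the 27 bases, 9 codons' length, that the shorter donor leaves out.
Slc4a4 longer donor: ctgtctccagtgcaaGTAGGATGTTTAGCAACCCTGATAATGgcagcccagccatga
Slc4a4 shorter donor: ctgtctccagtgcaagcagcccagccatga
The capital stretch lies at chr5:89046366-89046392 and begins with GT, the letters of a splice donor. Its length leaves the reading frame as it was.

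The shorter donor of Slc4a4 had 20.2, 26.8 and 13.7 FPKM in Gde2KO replicates 1 to 3, against 32.1, 24.2 and 21.2 FPKM in WT replicates 1 to 3. Its share was 25.0%, 32.1% and 18.6% in Gde2KO replicates 1 to 3, against 38.8%, 25.7% and 26.96% in WT replicates 1 to 3. The shares overlapped, with means of 25.3 ± 6.75% in Gde2KO and 30.5 ± 7.23% in WT cords (SD, n = 3 each), a difference of -5.21 percentage points. The share of the form Slc4a4-208 itself was tested and did not pass: 75.0%, 49.5% and 81.4% in Gde2KO replicates 1 to 3, against 61.2%, 74.3% and 73.0% in WT replicates 1 to 3 (limma on the log-odds, adjusted p = 0.998). Over all isoforms tested, 11 of 2338 (0.47%) were called, and 0 of the 2 isoforms of the 10 genes that could be tested were among them. At an unadjusted p under 0.05 the share was 3.68% over all isoforms and again 0 of these 2.

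Atp1b2 encodes the beta-2 subunit of the sodium pump, also known as AMOG, an adhesion protein of glia. It lies on the minus strand of chromosome 11, bases 69599736 to 69605942. It had 993, 960 and 695 FPKM in Gde2KO replicates 1 to 3, against 737, 931 and 903 FPKM in WT replicates 1 to 3. The highest and the lowest of the 6 values were both in Gde2KO libraries. The resulting log2 difference was 0.03 (interval -0.41 to 0.47, limma adjusted p = 0.979), and its sign changed under several settings. The 7-exon form Atp1b2-201, coding for 290 amino acids, was assembled in 5 libraries. WT replicate 1 instead had an 8-exon transcript of 544 FPKM with an unannotated intron reaching past the end of the gene, and a 2-exon piece of 377 FPKM.

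Aldoc encodes aldolase C, the glycolytic aldolase of brain. It lies on chromosome 11, bases 78322968 to 78327781, plus strand. It had 800, 743 and 594 FPKM in Gde2KO replicates 1 to 3, against 969, 962 and 1055 FPKM in WT replicates 1 to 3. Every Gde2KO value lay below every WT value, with means of 713 ± 107 FPKM in Gde2KO and 995 ± 51.9 FPKM in WT cords (SD, n = 3 each). The log2 difference was -0.49 (interval -0.82 to -0.16), a fold of 0.711, with an unadjusted p of 0.0110 and an adjusted p of 0.882 from limma. It did not pass the test, and 1399 of the genes tested had groups that did not overlap.

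The last exon of Aldoc, which starts at 78326262, was assembled to different ends. In Gde2KO replicate 1 it ended at 78326339 with 78 bases and in Gde2KO replicate 2 at 78326295 with 34 bases, both before the annotated end of the coding sequence at 78326351. In all 3 WT libraries it ended at base 78326558 and held 297 bases. Transcripts that stopped in an earlier exon were found in both genotypes, with 697 FPKM in Gde2KO replicate 3, 575 FPKM in WT replicate 2 and 550.4 FPKM in WT replicate 3. The other Aldoc transcript of Gde2KO replicate 3, of 206 FPKM, had 18 exons and read on into Pigs, the next gene on the strand, which starts 634 bases past the annotated end of Aldoc, and shared 11 introns with it. No other library held an Aldoc transcript past the annotated end. With that transcript, Pigs had 206 FPKM in Gde2KO replicate 3, 41.5 and 41.4 FPKM in Gde2KO replicates 1 and 2, and 23.1 to 39.9 FPKM in WT libraries. The counted bases of Aldoc covered by a transcript were 83.5%, 80.8% and 100% in Gde2KO replicates 1 to 3, against 97.1%, 100% and 100% in WT replicates 1 to 3.

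The Aldoc value differed between measures, and the part of the 3′ ends in that was not tested. Over bases assembled in all 6 libraries the log2 difference was -0.28, for the plain sum of transcripts it was -0.28, and for all fragments of its transcripts it was -0.23, with 1341, 1346 and 2011 FPM in Gde2KO replicates 1 to 3, against 1755, 1862 and 1871 FPM in WT replicates 1 to 3. Gde2KO replicate 3 was then the highest of the 6. With only the bases inside the annotated gene counted, the values were 1274, 1211 and 1251 FPM in Gde2KO replicates 1 to 3, against 1650, 1742 and 1769 FPM in WT replicates 1 to 3. The groups did not overlap by that measure, which was added after seeing the data, with a log2 difference of -0.44 (limma adjusted p = 0.342). It takes the fragments of a transcript as spread evenly over its assembled length. In Gde2KO replicate 3, 1216 of the 2011 FPM lay in the transcript that reads into Pigs. In Gde2KO replicates 1 and 2 the last exon was assembled shorter than in WT, so fewer bases were counted. Aldoc stayed lower in Gde2KO under every setting tried and passed the test under none.

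Aldh1l1 encodes the folate enzyme 10-formyltetrahydrofolate dehydrogenase and marks astrocytes across the nervous system. It lies on chromosome 6, bases 90486427 to 90600203, plus strand. It had 27.2, 33.2 and 29.2 FPKM in Gde2KO replicates 1 to 3, against 24.1, 28.2 and 26.2 FPKM in WT replicates 1 to 3. Gde2KO replicates 2 and 3 lay above every WT value and replicate 1 inside the WT range. This gave a log2 difference of 0.19 (interval -0.06 to 0.44, limma adjusted p = 0.882), and it was above 0 under every setting tried. The gene was assembled with 2 ends of the first exon, 73 bases apart and outside the coding sequence, as in Aldh1l1-201 and Aldh1l1-203, which both code for 902 amino acids. The shorter first exon took 49.0%, 61.0% and 38.5% in Gde2KO replicates 1 to 3, against 44.1%, 86.3% and 25.7% in WT replicates 1 to 3. The WT libraries held both the highest and the lowest share, and the test of the share did not pass (adjusted p = 0.993).

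Promoter sequences were read to show where the assembled transcripts begin. The RefSeq table (GRCm38.p6) held 9 windows for 7 of the 10 genes, with none for Aqp4, Atp1b2 and Sox9. Glul and Aldh1l1 are shown because their assembled first bases lay closest to the RefSeq start in all 6 libraries, 1 to 3 bases and 10 to 23 bases upstream of it. The 100 bases just upstream of the most upstream assembled base follow, with capitals for CCAAT or its reverse complement, the CCAAT box.
Glul, chr1:153899826-153899925, plus strand: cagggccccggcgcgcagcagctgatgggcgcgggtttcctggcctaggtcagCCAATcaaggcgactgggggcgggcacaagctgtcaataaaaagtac
Aldh1l1, chr6:90550670-90550769, plus strand: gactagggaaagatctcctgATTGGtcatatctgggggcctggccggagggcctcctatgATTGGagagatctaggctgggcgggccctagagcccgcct
On either strand, CCAAT was in 4 of the 9 windows, against 37.4% of all 32851 windows of 300 bases. TATAAA, the TATA box, was in the windows of Agt and Slc1a3 (13.6% of all windows), and ACAAT, the core letters of SOX sites, in those of Aldoc and Slc1a3 (31.0% of all windows). A match is a description of the letters only.

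Sox9 encodes a transcription factor that starts gliogenesis and stays on in astrocytes. It lies on chromosome 11, bases 112782224 to 112787760, plus strand, with 1 annotated form of 3 exons. It had 4.96, 6.79 and 4.32 FPKM in Gde2KO replicates 1 to 3, against 8.21, 6.42 and 7.39 FPKM in WT replicates 1 to 3. Gde2KO replicates 1 and 3 lay below every WT value and replicate 2 inside the WT range. The log2 difference was -0.47 (interval -0.93 to -0.00), with an unadjusted p of 0.0487 and an adjusted p of 0.882 from limma. Gde2KO replicate 1 was assembled as 2 pieces, of 7.09 and 4.17 FPKM, where the other 5 libraries had the whole 3-exon transcript. Adding up pieces therefore brought the difference to -0.05, while by fragments per gene, which does not add up levels, Sox9 had 20.1, 27.5 and 17.95 FPM in Gde2KO replicates 1 to 3, against 34.9, 26.7 and 30.2 FPM in WT replicates 1 to 3.

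Agt encodes angiotensinogen, the precursor that renin cuts. It lies on the minus strand of chromosome 8, bases 124556534 to 124569706. It had 176, 189 and 138 FPKM in Gde2KO replicates 1 to 3, against 143, 185 and 176 FPKM in WT replicates 1 to 3. The groups overlapped almost fully, with a log2 difference of -0.01 (interval -0.41 to 0.39, limma adjusted p = 0.994). One 5-exon transcript, with the intron chain of Agt-201 and coding for 482 amino acids, was assembled in each library. Its first base lay 174 to 295 bases upstream of the RefSeq start in all 6.

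**Figure D4:**
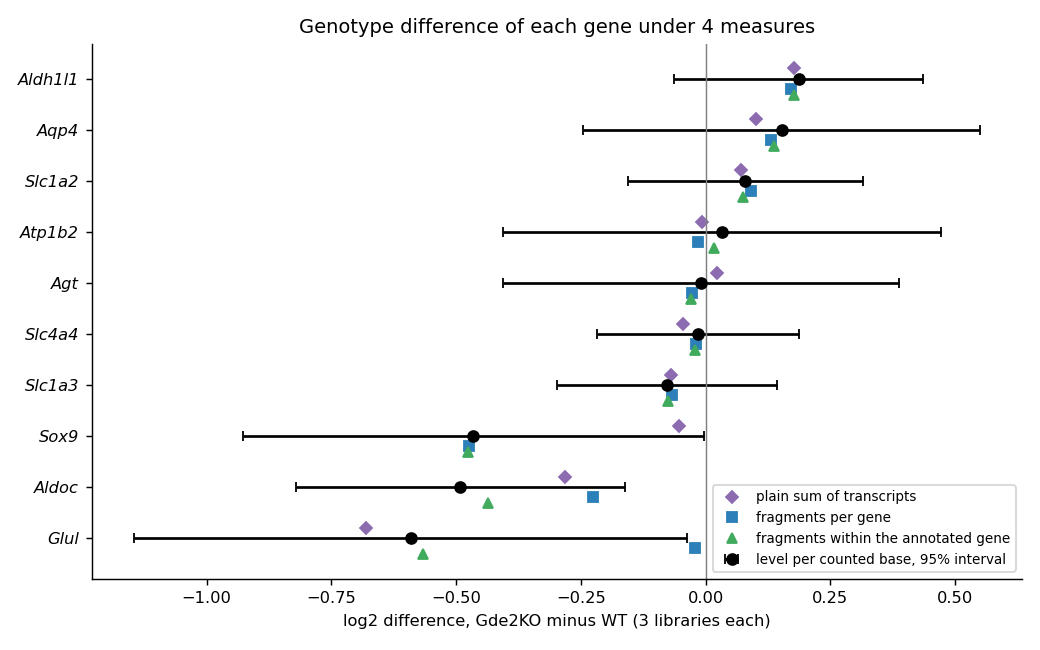
Log2 difference (Gde2KO minus WT, 3 libraries each) of each gene: black points with 95% intervals for the level per counted base, coloured points for 3 other measures of the same transcripts. Glul moves from -0.59 to -0.02 with fragments per gene, Sox9 moves to -0.05 with the plain sum, and Aldoc stays between -0.23 and -0.49.

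By level per length over the 6 libraries, the order was Atp1b2 (870 ± 124 FPKM), Aldoc (854 ± 172), Glul (620 ± 169), Slc1a2 (246 ± 17.4), Agt (168 ± 21.9), Aqp4 (109 ± 17.3), Slc4a4 (79.3 ± 4.51), Slc1a3 (36.2 ± 2.73), Aldh1l1 (28.0 ± 3.06) and Sox9 (6.35 ± 1.47; SD, n = 6). The ranges of Atp1b2 and Aldoc overlapped, with Atp1b2 the higher in 3 of 6 libraries, and Aldoc exceeded Glul in 5 of 6. From Glul downwards each gene exceeded the next in all 6 libraries, although the ranges of Agt and Aqp4 overlapped. Atp1b2 and Aldoc ranked 16 and 18 among the 12894 genes tested, and Sox9 ranked 7316.

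The lowest values of the 10 genes were spread unevenly over the libraries. Gde2KO replicate 3 held the lowest value of 5 of the 10 genes (Aldoc, Slc4a4, Atp1b2, Sox9 and Agt) and the highest of none. WT replicate 1 held the lowest value of 3 (Slc1a2, Aqp4 and Aldh1l1). Among 23 other astrocyte genes, 12 were lowest in WT replicate 1 and 4 in Gde2KO replicate 3. The median log2 deviation of the 10 genes from the WT mean was 0.05, 0.01 and -0.13 in Gde2KO replicates 1 to 3, against -0.14, 0.11 and 0.04 in WT replicates 1 to 3. The deviations overlapped between genotypes.

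The other 23 astrocyte genes gave no call either, with 15 higher and 8 lower in Gde2KO and a median log2 difference of 0.05 by limma. At an unadjusted p under 0.05 there was 1 of 23, where the share over all genes was 3.91%. Gfap, the astrocyte intermediate filament, had 564, 700 and 651 FPKM in Gde2KO replicates 1 to 3, against 559, 685 and 644 FPKM in WT replicates 1 to 3. Gja1, which encodes connexin 43, averaged 118 ± 10.2 FPKM in Gde2KO and 110.4 ± 5.89 FPKM in WT cords. Htra1, a secreted protease, averaged 108 ± 26.1 FPKM in Gde2KO and 68.0 ± 13.5 FPKM in WT cords, with a log2 difference of 0.65 (limma unadjusted p = 0.0344, adjusted p = 0.882), and the groups overlapped. Dio2, the enzyme that activates thyroid hormone, had a log2 difference of 0.36, and Sparcl1, the most abundant of them at 1648 ± 190 FPKM in Gde2KO and 1660 ± 69.6 FPKM in WT cords, one of -0.02.

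Of 14 genes of the glutamate and glutamine cycle, 0 were called, with 5 higher and 9 lower in Gde2KO, a median of -0.04, and 2 at an unadjusted p under 0.05 (limma). Shares over all genes were 3.91% at that p and 10.9% for groups without overlap. Slc38a2, a sodium-coupled neutral amino acid transporter, had 51.7, 46.8 and 56.9 FPKM in Gde2KO replicates 1 to 3, against 33.3, 23.8 and 42.4 FPKM in WT replicates 1 to 3. Its groups did not overlap, and its log2 difference was 0.68 (limma unadjusted p = 0.0228, adjusted p = 0.882). Slc38a5 had a log2 difference of -0.57 (adjusted p = 0.882). Slc38a3, the glutamine exporter of astrocytes, averaged 46.2 ± 3.12 FPKM in Gde2KO and 48.2 ± 0.977 FPKM in WT cords. The neuronal glutamate transporter Slc1a1 had a difference of 0.06, and Got1, an aspartate aminotransferase, 0.09.

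Genes that hold Aqp4 in the endfoot, or lie beside it there, gave 0 calls of 13, with 2 higher, 11 lower, a median of -0.08 and 0 at an unadjusted p under 0.05 (limma). Kcnj10, the potassium channel Kir4.1, had 281, 283 and 227 FPKM in Gde2KO replicates 1 to 3, against 281, 319 and 320 FPKM in WT replicates 1 to 3, a difference of -0.22. Dag1, dystroglycan, had a difference of -0.09.

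Sodium pump genes gave 0 calls of 8 by limma (5 higher, 3 lower, median 0.01, 0 at an unadjusted p under 0.05). Bicarbonate and pH genes gave 0 of 9 (4 higher, 5 lower, median -0.06, also 0 unadjusted), with Slc4a8 at -0.09, the carbonic anhydrase gene Car14 at 0.12, and Car2, the most abundant, at 147 ± 50.1 FPKM in Gde2KO and 175 ± 53.3 FPKM in WT cords.

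Genes of glycolysis, lactate and glycogen gave 0 calls of 19 by limma (12 higher, 7 lower, median 0.05), with 2 at an unadjusted p under 0.05. Shares over all genes were 3.91% at that p and 10.9% for groups without overlap. Aldoa, the aldolase of muscle and most cells, averaged 582 ± 52.0 FPKM in Gde2KO and 558 ± 103 FPKM in WT cords, a log2 difference of 0.07 beside the -0.49 of Aldoc. Gapdh, the glyceraldehyde phosphate dehydrogenase gene, had 95.2, 93.8 and 68.9 FPKM in Gde2KO replicates 1 to 3, against 123, 115 and 128 FPKM in WT replicates 1 to 3, without overlap (difference -0.52, limma unadjusted p = 0.0117, adjusted p = 0.882). Gapdh has near-identical copies in the genome, and their part in its value was not tested. Slc16a1, the lactate transporter MCT1, had a difference of -0.15 without overlap (unadjusted p = 0.0380, adjusted p = 0.882) and Pkm, pyruvate kinase, -0.14. One-carbon and folate genes gave 0 of 14 (11 higher, 3 lower, median 0.05), with 1 at an unadjusted p under 0.05. Mthfd1l had 0.26 and Psat1, of serine synthesis, 0.05.

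Glial transcription factors other than Sox9 gave 0 calls of 10 by limma (4 higher, 6 lower, median -0.06, 0 at an unadjusted p under 0.05). Sox2 averaged 11.4 ± 1.41 FPKM in Gde2KO and 13.3 ± 2.12 FPKM in WT cords (difference -0.22), Nfia 0.09 in log2 difference, and Sox8, the most abundant, -0.13. Renin-angiotensin genes gave 0 of 7 (4 higher, 3 lower, median 0.06, also 0 unadjusted). Agtr2, an angiotensin receptor, had 1.89, 1.91 and 2.54 FPKM in Gde2KO replicates 1 to 3, against 1.72, 1.42 and 1.84 FPKM in WT replicates 1 to 3, without overlap (difference 0.33, limma adjusted p = 0.882). Groups without overlap made up 10.9% of all genes tested. Anpep had -0.24 and Atp6ap2, the most abundant, 0.18. Renin (Ren1) and the receptor gene Agtr1a had no counted base and Agtr1b and Mas1 no assembled exonic base of their own.

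**Figure D5:**
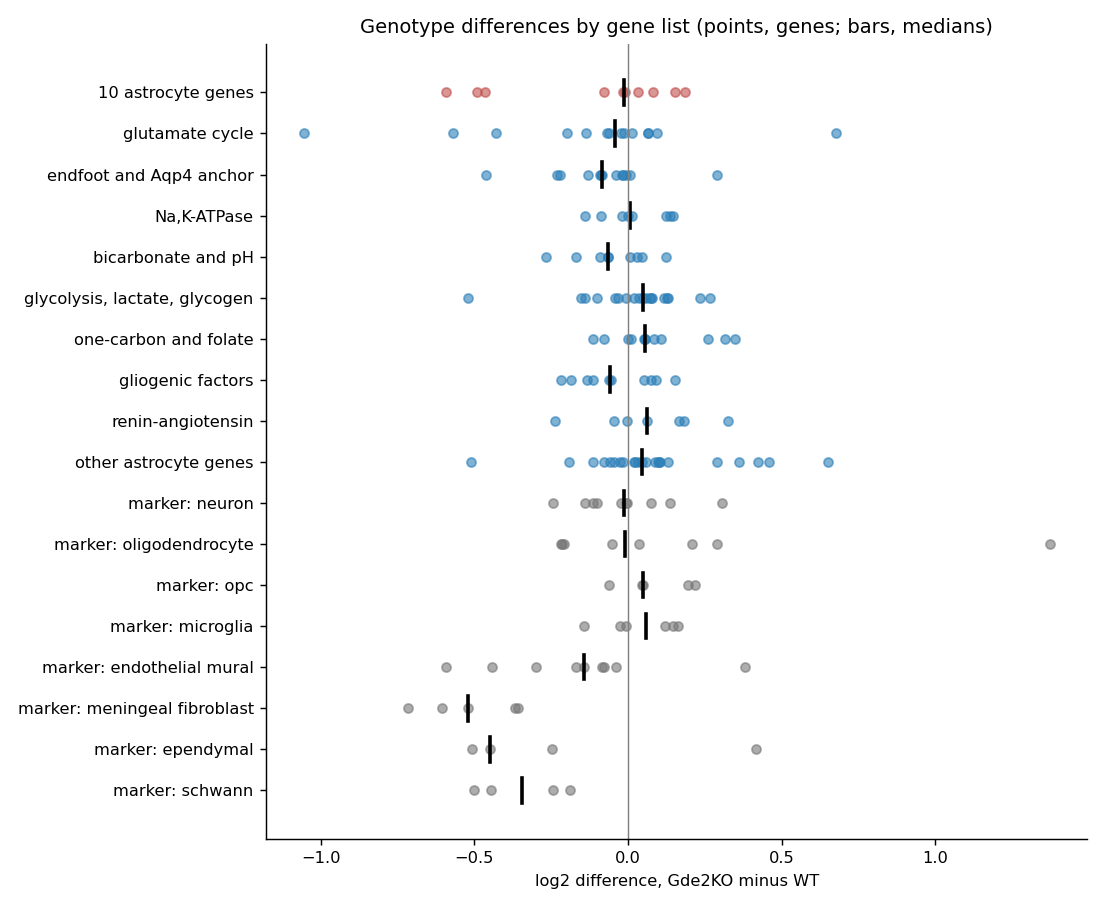
Log2 difference (Gde2KO minus WT) of each tested gene by list, with black bars for list medians. Red points are the 10 astrocyte genes, blue points the related lists and grey points markers of other cell types. Genes listed at 0 in at least 1 library count in the medians but are not drawn. All 9 related lists have medians between -0.08 and 0.06, and the meningeal, ependymal and Schwann markers have medians of -0.52, -0.45 and -0.35.

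Markers of other cell types gave 0 calls by limma too, with 6 below an unadjusted p of 0.05, where the share over all genes was 3.91%. The 6 were 1 of 5 meningeal, 1 of 5 ependymal, 3 of 9 endothelial or mural and 1 of 8 oligodendrocyte genes. There were 0 among 10 neuron, 5 oligodendrocyte precursor, 6 microglia and 4 Schwann genes. Meningeal fibroblast markers were lower in Gde2KO for 5 of 5 genes, with log2 differences of -0.72 for Slc6a13, a GABA transporter, -0.60 for Col1a1 and -0.36 for Dcn. Their summed level was 30.7 to 71.8 FPKM in Gde2KO and 63.1 to 82.7 FPKM in WT libraries, lowest in Gde2KO replicate 1. Schwann markers were lower for 4 of 4, with -0.45 for Pmp22 and -0.50 for Cldn19, and sums of 128 to 351 FPKM in Gde2KO and 206 to 338 FPKM in WT libraries. The same library, Gde2KO replicate 1, had the lowest Schwann sum, and it carried the highest Aqp4 value.

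Endothelial and mural markers, the cells that astrocyte endfeet touch, were lower for 8 of 9 (median -0.14), with -0.30 for Vtn of pericytes, -0.59 for the receptor gene Kdr and 0.38 for Ly6c1. Their sums were 176 to 184 FPKM in Gde2KO and 181 to 189 FPKM in WT libraries. Ly6c1 had 54.2, 53.0 and 52.0 FPKM in Gde2KO replicates 1 to 3, against 27.2, 51.1 and 48.5 FPKM in WT replicates 1 to 3. Ependymal markers were lower for 4 of 5, with -0.51 for Dynlrb2 and 0.42 for Foxj1, the factor of ciliated cells. Foxj1 had 63.2, 61.5 and 54.5 FPKM in Gde2KO replicates 1 to 3, against 19.7, 66.4 and 68.0 FPKM in WT replicates 1 to 3. WT replicate 1 thus stood apart, and WT replicates 2 and 3 lay above every Gde2KO value. Ependymal sums were 69.8 to 74.5 FPKM in Gde2KO and 45.9 to 89.0 FPKM in WT libraries, lowest in WT replicate 1. Rarres2 was listed at 0 in Gde2KO replicates 1 and 2 and had 12.1 FPKM in replicate 3, against 12.7, 10.99 and 10.2 FPKM in WT replicates 1 to 3. No other marker of these lists was listed at 0 in a library.

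Oligodendrocyte markers were higher for 4 of 8 and lower for 4 (median -0.01), with -0.22 for Opalin and 1.37 for Mobp. Mobp had 1410, 1502 and 1357 FPKM in Gde2KO replicates 1 to 3, against 253, 473 and 1379 FPKM in WT replicates 1 to 3, so WT replicates 1 and 2 stood apart (limma adjusted p = 0.882). Oligodendrocyte sums were 7738 to 9639 FPKM in Gde2KO and 6598 to 9583 FPKM in WT libraries, lowest in WT replicate 1, which also held the lowest Aqp4 and Slc1a2 values. Neuron markers were higher for 3 of 10 and lower for 7 (median -0.01), with 0.14 for the neurofilament gene Nefl and -0.14 for Rbfox3, and sums of 2293 to 2460 FPKM in Gde2KO and 2236 to 2420 FPKM in WT libraries. Sums of microglia markers (83.6 to 96.9 FPKM in Gde2KO and 86.5 to 99.5 FPKM in WT, 3 higher and 3 lower) and of oligodendrocyte precursor markers (86.3 to 105 FPKM in Gde2KO and 84.0 to 101 FPKM in WT, 4 higher and 1 lower) overlapped as well. The part of these markers in the values of the 10 genes was not tested.

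The genes whose levels followed Aqp4 most closely over the 6 libraries, among 8197 with a mean of at least 5 FPKM, were Gsto1 (Pearson r = 0.995), Egfl6 (0.966) and Fam104a (0.964). For Slc1a2 they were Sgms1 (0.993), Slk (0.986) and Gng12 (0.985). Over 6 libraries that share a scaling, 6 genes reached r of at least 0.95 with Aqp4 and 36 with Slc1a2, and these values are a description with no test.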

How the data were processed

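The submitters' processing notes name FastQC, TopHat2 2.1.1, Cufflinks 2.2.1, Cuffdiff 2.2.1 and the mm10 build, with no role or settings. Each file deposited by the authors is a Cufflinks assembly of 1 library with an FPKM value and confidence bounds per transcript, per the file headers and fields. FPKM divides by assembled length, so a differing model changes it.

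Transcripts of at least 200 exonic bases were matched to GENCODE vM21. Strandless transcripts, 13.1% to 14.1% per library, counted where no exon lies on the other strand. A gene's level is the FPKM summed over transcripts at each exonic base of that gene alone assembled in at least 3 libraries, averaged over those bases and divided by median-of-ratios factors (0.989 to 1.04). A counted base that a library did not assemble enters that library's average as 0. Genes with at least 200 such bases and a mean of at least 1 FPKM, 12894 in all, were tested two-sided with limma 3.58.1 in R 4.3.3 (trend, robust) on log2(FPKM + 0.1) with Benjamini-Hochberg adjustment. Folds are on that scale, which understates low genes. With 3 libraries a group, an exact permutation p cannot go below 0.1, so none is given. Isoforms were matched by intron chain. Those in all 6 libraries with a mean share of 10% to 90% and a gene level of at least 5 FPKM were tested on log-odds. The fits were also run on simulated data with independent normal noise, which held no differences in assembled length and no missing forms. The outcome is not reported here. Depth in reads is unknown. The 10 genes and the 17 lists were chosen with earlier results of these data known. Genes named from a list are its 2 of smallest p and its most abundant, with 12 others named by hand. Chat, Slc6a5, Pigs and the forms described were named after their values were seen. Some genes that this rule names are not reported here.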

Additional observations from a re-analysis of the deposited data

How the results depend on the processing

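No call was made among the 10 genes in the reported fit or under 19 alternatives, and the smallest adjusted p of any of them was 0.330 (Glul without Gde2KO replicate 3). Of 190 values under the alternatives, 174 kept their direction. Glul, Aldoc, Sox9, Slc1a3 and Aldh1l1 kept theirs throughout.

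Atp1b2 turned to -0.0078 with the plain sum, -0.0162 with fragments per gene and -0.0017 without scaling, and Agt to 0.0224 with the plain sum, 0.0033 over bases assembled in all 6 libraries and 0.0012 with quantile normalization. Leaving out 1 library in turn gave -0.0733 to 0.20 for Atp1b2, -0.12 to 0.13 for Agt, -5e-04 to 0.14 for Slc1a2, -0.0066 to 0.24 for Aqp4, -0.0572 to 0.0355 for Slc4a4, -0.83 to -0.46 for Glul, -0.58 to -0.37 for Aldoc and -0.65 to -0.33 for Sox9. The cause was not tested.

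The count of 15 genes called over all genes was 4 with a pseudocount of 0.01, 1 with a mean of at least 5 FPKM, 9 with fragments per gene, 9 with fragments within the annotated gene (chosen after seeing the data), 4 over bases assembled in all 6 libraries and 4 with values of 0 as missing, and 10 to 26 with 1 library left out (24 without Gde2KO replicate 2, 25 without Gde2KO replicate 3 and 26 without WT replicate 2). Lower calls outnumbered higher ones without any 1 Gde2KO library, and higher ones outnumbered lower ones without any 1 WT library. The 11 isoforms called were 3 on the linear scale and 24 to 32 with 1 library left out. The share of Aqp4-201 differed by -25.4 to 18.9 percentage points and that of Slc1a2-202 by -5.52 to 10.7 with 1 library left out. With the replicate number as a block, the calls were 2 genes and 0 isoforms, and 0 of the 10 genes. The labels do not say what the numbers share, the deviations of same-numbered libraries correlated at 0.01, 0.04 and -0.07, and 1 of the 3 Gde2KO libraries correlated best with its own number.

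Only 3 libraries a group and assembled rather than counted reads limit the precision: the 95% intervals of the log2 differences were 0.40 (Slc4a4) to 1.11 (Glul) wide.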
